A study of Homo sapiens with 6 samples.

Results

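The ATP-binding cassette (ABC) transporter genes were compared between 2 human colon cancer cell lines. Members were taken by symbol, as every gene named ABC followed by a subfamily letter A to G and a number, read from probe sets with a single gene symbol in the platform annotation. This gave 34 of the 11963 genes measured: 9 of subfamily A, 6 of B, 8 of C, 3 of D, 1 of E, 3 of F and 4 of G. HCT116 is an established line, labelled as poorly metastatic (3 arrays). E1 is labelled as metastatic and derived in vivo, and its own cell line label again reads HCT116 (3 arrays). The labels give no treatment, time or genotype for either line, and do not say which host or site E1 came from, whether it is a single clone, or whether the triplicate arrays of a line are separate cultures, so every p-value measures only the spread between these arrays.

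ABC proteins share a nucleotide-binding domain that hydrolyses ATP. In subfamilies A, B, C, D and G it is joined to membrane-spanning domains, and the cycle of ATP binding and hydrolysis moves a substrate across a membrane: lipids and sterols (A and G), drugs, peptides, heme precursors and bile constituents (B), glutathione conjugates and organic anions (C), and fatty acyl-CoA into peroxisomes (D). Subfamilies E and F have no membrane domain and act on the ribosome and in translation. In colon epithelium ABCB1, ABCC2 and ABCG2 are known as apical efflux pumps and ABCC3 as a basolateral one, and in tumour cells ABCB1, ABCC1 and ABCG2 are the classical pumps of multidrug resistance.

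On the arrays, the ratio of the 3' to the 5' control signal of GAPDH was 0.774 to 0.811 for HCT116 and 0.803 for E1 array 1, but 34.1 for E1 array 2 and 71.9 for E1 array 3. Values of single E1 arrays therefore stand beside many of the results, and the part of transcript-end signal in them was not tested. The median intensity of an array was 61.8 to 66.5 for HCT116 and 61.2, 48.0 and 53.6 for E1 arrays 1, 2 and 3. Of 15 colon epithelium markers 8 had a line mean above the median of all genes, with summed intensities of 19010 to 21000 in HCT116 and 12060 to 16140 in E1, although CDX1, CDX2 and VIL1 read at most 13.1 on average in either line. KRT18 read 7509 to 8466 in HCT116 and 5677 to 6285 in E1. KRT8 read 3169 to 4693 in HCT116 and 2862, 372 and 103 on E1 arrays 1, 2 and 3. In HCT116 and E1 the means of EPCAM were 1950 and 2690, those of CDH1 705 and 716, and those of CLDN4 184 and 200. Means of KRT19 were 3540 and 2170, those of CLDN7 886 and 296, and those of ELF3 465.5 and 221. Of the 15 markers 0 were called between the lines in the limma fit described below. At an unadjusted p under 0.05 in that fit, 0 were higher and 5 lower in E1, where 5.29% and 9.70% of all genes were. Of 13 leukocyte, 15 fibroblast and 14 endothelial markers, 1, 4 and 1 lay above that median, with summed intensities of 332 to 497 and 427 to 488.5, 733 to 823 and 725 to 917, and 469 to 507 and 275.5 to 606, in HCT116 and E1 respectively, and PTPRC, CDH5 and LUM averaged at most 12.3. The markers above the median were CD3E, with means of 99.5 and 75.4, EGFL7, with 193 and 114.5, and COL1A1, FN1, ACTA2 and DCN, with 168 and 137, 90.3 and 183, 134 and 116, and 91.5 and 82.4.

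The sequences before 4 members are shown as a description, and their relation to the array values was not tested. They are ABCF2, the member with the smallest p between the lines, and ABCE1, ABCD3 and ABCC4, which were low on E1 array 1 only. These 4 were chosen after their values had been seen. Each is the 250 bases before 1 transcript start per gene, the first listed in the RefSeq table of build GRCh38.p14. It is given 5' to 3' on the gene's strand. Capitals mark matches to any of 6 motifs searched on both strands: GGGCGG as the GC box, CCAAT as the CCAAT box, TATAAA as the TATA box, CACGTG as the E-box, TGACNNNGC as the antioxidant response element core and TGACGTCA as the cAMP response element.
ABCF2, chr7:151227206-151227455, minus strand: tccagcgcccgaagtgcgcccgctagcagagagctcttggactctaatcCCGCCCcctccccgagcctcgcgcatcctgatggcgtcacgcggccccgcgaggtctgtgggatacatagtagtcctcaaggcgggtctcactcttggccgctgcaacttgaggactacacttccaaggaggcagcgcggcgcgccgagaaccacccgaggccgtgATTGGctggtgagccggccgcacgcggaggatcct
ABCE1, chr4:145098061-145098310, plus strand: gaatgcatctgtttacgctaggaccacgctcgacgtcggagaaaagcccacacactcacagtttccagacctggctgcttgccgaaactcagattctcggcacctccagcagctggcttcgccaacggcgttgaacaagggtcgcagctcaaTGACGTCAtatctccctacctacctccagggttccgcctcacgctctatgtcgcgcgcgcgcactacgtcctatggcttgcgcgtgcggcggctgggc
ABCD3, chr1:94418139-94418388, plus strand: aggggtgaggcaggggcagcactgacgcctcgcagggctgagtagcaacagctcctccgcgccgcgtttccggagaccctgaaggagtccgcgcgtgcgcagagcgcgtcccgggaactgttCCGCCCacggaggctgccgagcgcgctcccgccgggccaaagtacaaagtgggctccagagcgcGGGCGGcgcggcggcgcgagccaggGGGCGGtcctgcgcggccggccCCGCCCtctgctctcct
ABCC4, chr13:95301452-95301701, minus strand: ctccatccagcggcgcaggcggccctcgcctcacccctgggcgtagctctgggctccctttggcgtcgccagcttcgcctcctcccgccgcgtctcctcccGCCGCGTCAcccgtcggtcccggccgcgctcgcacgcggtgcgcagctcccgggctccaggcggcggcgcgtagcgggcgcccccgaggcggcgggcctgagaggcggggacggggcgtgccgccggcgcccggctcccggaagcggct

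The ABCF2 sequence held 1 GC box and 1 CCAAT match, the latter at bases -35 to -31 counted from the start, and the ABCD3 sequence held 4 GC boxes. ABCE1 held 1 cAMP response element, at -98 to -91, and ABCC4 held 1 antioxidant response element core, at -149 to -141. None of the 6 motifs was found in all of ABCE1, ABCD3 and ABCC4. These 3 genes were picked after their values had been seen, and whether a motif bears on the array values was not tested. The share of G and C was 66.4% for ABCF2, 60% for ABCE1, 74.4% for ABCD3 and 80.4% for ABCC4. The median was 58% over 27305 RefSeq genes and 62.8% over the ABC genes with an entry in the same sequence table. That sequence table held 27 of the 34 members, and of their sequences 17 held a GC box (63%, against 42.3% of all), 6 CCAAT (22.2%, against 33%), 3 TATAAA (11.1%, against 11.1%), 3 the E-box (11.1%, against 6.49%), 6 the antioxidant core (22.2%, against 11%) and 1 the cAMP element (3.7%, against 1.77%). In these windows ABCB1 and ABCG2 had 1 and 2 CpG dinucleotides, against 26 for ABCF2. A window covers only 1 listed start per gene, so these counts do not describe the promoter at any other start of a gene. ABCA4, ABCA8, ABCB4, ABCC1, ABCC3, ABCC8 and ABCG1 had no entry. A match is a description of letters and not of a bound factor.

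No ABC gene was called as different between HCT116 and E1. A call here means an adjusted p (Benjamini-Hochberg, over every gene of the limma fit) under 0.05, and 0 of 34 members passed, where 0.418% of all genes did. At an unadjusted p under 0.05 there was 1 member, ABCF2, lower in E1, whereas 15.0% of all genes stood past that mark, 5.29% higher and 9.70% lower. Each fold change was taken as E1 minus HCT116 on log2(intensity + 32), which understates changes of dim genes, and over the members the median was -0.05 against -0.0055 over all genes, with 16 above 0 and 18 below. That median was 0.03 after quantile normalization and 0.10 after array medians were subtracted, which moved the median of all genes from -0.0055 to 0.072 and 0.144. The members' adjusted p ran from 0.154 to 0.992.

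**Figure D1:**
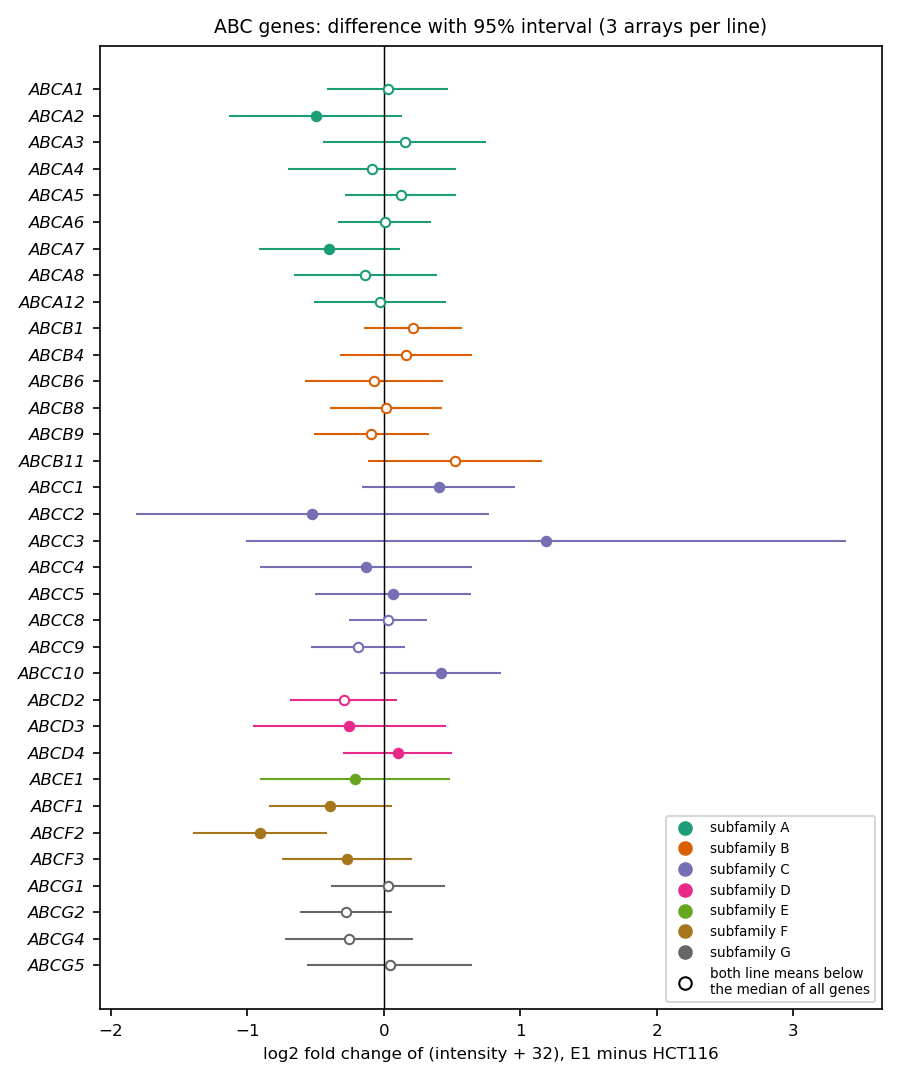
Log2 fold change of each of the 34 ABC genes (horizontal axis, E1 minus HCT116, on log2 of intensity + 32) with its 95% interval from the limma fit, coloured by subfamily, with open points where both line means lie below the median of all genes. The interval of ABCF2 alone leaves out 0, at -1.40 to -0.42, and ABCC3 and ABCC2 have the widest intervals.

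The intervals say how large a difference these arrays leave possible. For 29 of the 34 members (85.3%) the 95% interval lay wholly between -1 and 1, as it did for 74.4% of all genes. The exceptions were ABCA2, ABCB11, ABCC2, ABCC3 and ABCF2. Many members were dim: 14 of 34 had a mean of at least 1 line above the median of all gene means, an intensity of 88.1, and for the other 20 the offset of 32 shrinks any change. Of the 14, 10 had an interval between -1 and 1, against 62.1% of all genes equally bright. Arrays of the lines did not overlap for 4 members: ABCC10 was higher on every E1 array (8.18% of all genes were), and ABCF2, ABCG2 and ABCC9 were lower on every E1 array (10.7% of all genes were).

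**Figure D2:**
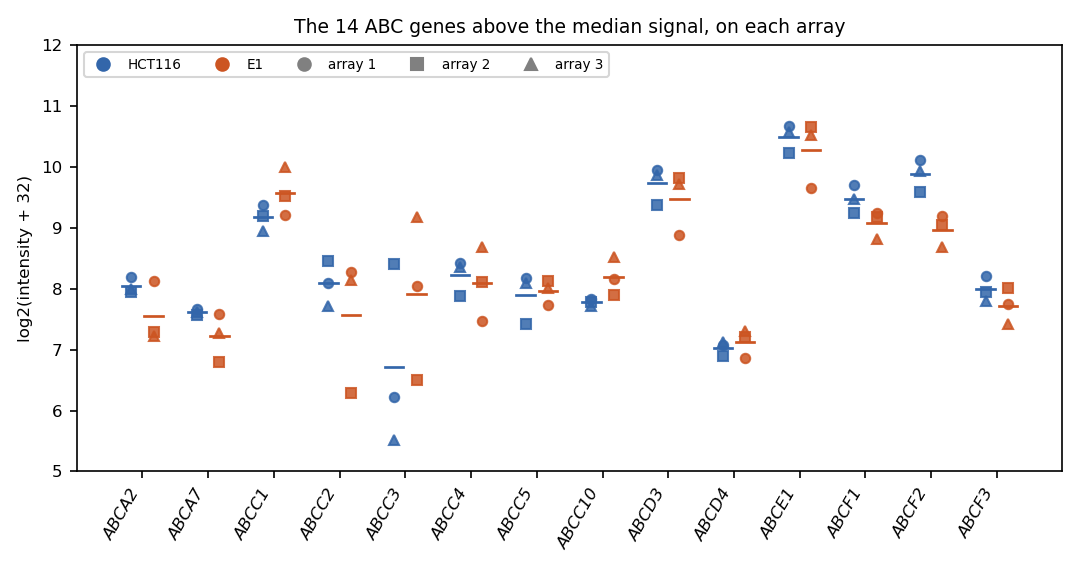
Intensity of the 14 brighter ABC genes on each of the 6 arrays, as log2(intensity + 32) on the vertical axis, with HCT116 in blue, E1 in orange, a marker shape per array and a bar at each line's mean. ABCF2 is the member whose E1 arrays lie furthest below its HCT116 arrays without overlap, and ABCC3 spreads widely within both lines.

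Subfamily F holds soluble ATPases of translation: ABCF1 binds the initiation factor eIF2, and ABCF2 and ABCF3 are its relatives. ABCF2 read 1079, 741.5 and 952 on the HCT116 arrays and 553, 499 and 379 on the E1 arrays. All 3 E1 values lay below all 3 HCT116 values, by a log2 difference of -0.91 (SE 0.21, 95% interval -1.40 to -0.42, unadjusted p = 0.00353, adjusted p = 0.154). The difference was -0.69 on E1 array 1, -0.83 on array 2 and -1.20 on array 3. ABCF1 read 802, 575 and 678 in HCT116 and 578.5, 547 and 418 in E1, where the highest E1 array lay just above the lowest HCT116 array. Its log2 difference was -0.39 (SE 0.19, adjusted p = 0.393). ABCF3 stood at -0.27 (SE 0.20, adjusted p = 0.590), with 192 to 265 in HCT116 and 140 to 225.5 in E1. The 3 F genes kept a negative sign under quantile normalization and with array medians subtracted, where ABCF2 stood at -0.82 and -0.76, ABCF1 at -0.30 and -0.24 and ABCF3 at -0.08 and -0.12.

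The ABCF2 value depended on the probe set. Of its 5 probe sets the brightest, 209247_s_at, stands for the gene. The next, 207622_s_at, read 789, 457 and 674 in HCT116 and 324, 91.4 and 43.0 in E1, which gave a log2 difference of -2.14 (SE 0.57, unadjusted p = 0.00881, adjusted p = 0.165 in the fit over 19065 single probe sets). Its difference went from -0.88 on E1 array 1 to -2.41 on array 2 and -3.13 on array 3, the arrays with the high GAPDH ratios. The dimmer 209246_at and 214232_at, at mean intensities of 80.4 and 76.2, stood at -0.16 (SE 0.18) and 0.11 (SE 0.19), and 207623_at, at 22.6, at -0.05 (SE 0.46). Over all 54 ABC probe sets taken singly, 0 were called (0.871% of all probe sets were) and 4 had an unadjusted p under 0.05 (16.8% of all did), namely the 2 bright ABCF2 probe sets and 1 each of ABCC1 and ABCA2 described below. Without probe sets whose identifiers end in _s_at or _x_at, which may match several transcripts, ABCF2 was represented by 209246_at and stood at -0.16 (adjusted p = 0.767). Such probe sets stand for 17 of the 34 members.

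ABCE1, the only gene of subfamily E, splits the ribosome into subunits after termination. It read 1599, 1177 and 1489 in HCT116 and 776, 1594 and 1438 in E1. E1 array 1 was the lowest of all 6 arrays, and E1 arrays 2 and 3 lay within the range of HCT116. In its second probe set E1 array 1 was again the lowest, with 869, 718 and 918 in HCT116 and 463, 934 and 942 in E1, and both other E1 arrays lay above HCT116. Over all arrays the log2 fold change was -0.21 (SE 0.29, adjusted p = 0.809), and without E1 array 1 it was 0.10 (SE 0.18, adjusted p = 0.807).

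Subfamily D imports fatty acyl-CoA into peroxisomes, apart from ABCD4, which serves lysosomal export of cobalamin. ABCD3, the abundant peroxisomal membrane protein PMP70, read 961, 632.5 and 901 in HCT116 and 441, 873 and 816 in E1. As with ABCE1, E1 array 1 was the lowest of all and the other E1 arrays lay within the HCT116 range, with a log2 difference of -0.25 (SE 0.30, adjusted p = 0.764) over all arrays. ABCD4 stood at 0.10 (SE 0.17, adjusted p = 0.846), from 86.6 to 107 in HCT116 and 84.9 to 127 in E1. ABCD2, a transporter of very long chain fatty acyl-CoA, was dim throughout, at 11.96 to 17.2 in HCT116 and 1.86 to 13.7 in E1. Its fold change is offset-dependent, at -0.29 (adjusted p = 0.454) with an offset of 32 and -1.49 (adjusted p = 0.348) with an offset of 1.

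Subfamily C holds the multidrug resistance-associated proteins and the sulfonylurea receptors. ABCC1, a basolateral exporter of glutathione conjugates, read 634, 554 and 463.5 in HCT116 and 562, 703 and 991 in E1, which gave a log2 difference of 0.40 (SE 0.23, 95% interval -0.16 to 0.96, adjusted p = 0.476). E1 array 1 lay within the HCT116 range and arrays 2 and 3 above it. Its other probe set, 202805_s_at, went the opposite way on those same arrays, with 453, 313 and 317 in HCT116 and 294.5, 101 and 96.0 in E1, which gave a log2 difference of -1.13 (SE 0.39, adjusted p = 0.240 over single probe sets). With the mean of both probe sets ABCC1 stood at -0.36 (adjusted p = 0.392), and on E1 array 1 the probe sets differed from HCT116 by 0.04 and -0.25. The direction for ABCC1 therefore follows the probe set chosen.

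ABCC3, an exporter of bile acids and glucuronides, had the largest fold change of the family and also the largest spread. It read 42.55, 310 and 14.05 on HCT116 arrays 1, 2 and 3 and 231, 58.6 and 551 on E1 arrays 1, 2 and 3. The lines overlapped, and each line held both low and high arrays. Its second probe set also ran high on HCT116 array 2 and E1 arrays 1 and 3, with 10.75, 55.65 and 8.98 in HCT116 and 55.95, 9.91 and 45.7 in E1. The log2 fold change was 1.19 (SE 0.92, 95% interval -1.01 to 3.39, adjusted p = 0.608), and leaving out 1 array at a time moved it from 0.55 (SE 0.95, adjusted p = 0.916, without E1 array 3) to 2.04 (SE 0.77, adjusted p = 0.396, without HCT116 array 2). It was 0.59 without HCT116 array 3 and 1.89 without E1 array 2.

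ABCC2, the apical conjugate pump, read 241, 319 and 180 in HCT116 and 278, 46.0 and 250 in E1. E1 array 2 was low and the other E1 arrays lay within the HCT116 range, so that the log2 fold change of -0.52 had an SE of 0.54 (adjusted p = 0.723), and without E1 array 2 it was 0.12 (SE 0.25, adjusted p = 0.888). ABCC4, which exports cyclic nucleotides and prostaglandins, read 314, 205 and 295 in HCT116 and 146, 246 and 381 in E1. Here too E1 array 1 was the lowest of all, while E1 array 3 was the highest, at a log2 difference of -0.13 (SE 0.32, adjusted p = 0.910). ABCC10, a pump of taxanes, read 196, 189 and 178 in HCT116 and 255, 207 and 336.5 in E1, higher on every E1 array by a log2 difference of 0.42 (SE 0.19, unadjusted p = 0.0612, adjusted p = 0.356). It stood at 0.59 (adjusted p = 0.156) after quantile normalization. Its second probe set, 215873_x_at, went the other way, at -0.21 (SE 0.16), with 138 and 133 on E1 arrays 2 and 3 and 171 to 193 on the other arrays. ABCC5, an exporter of cyclic nucleotides, stood at 0.07 (SE 0.24), and the sulfonylurea receptors ABCC8 and ABCC9, subunits of potassium channels, were dim and stood at 0.03 (SE 0.12) and -0.19 (SE 0.14).

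Subfamily B was dim in both lines, with 0 of 6 members above the median of all genes. ABCB1, the P-glycoprotein drug pump, read 33.2, 24.8 and 19.85 in HCT116 and 29.1, 36.2 and 40 in E1. The lines overlapped, with a log2 difference of 0.21 (SE 0.15, 95% interval -0.14 to 0.57, adjusted p = 0.555). ABCB11, the bile salt export pump, read 8.10, 6.95 and 31.1 in HCT116 and 50.4, 38.1 and 18.4 in E1, at 0.52 (SE 0.27, adjusted p = 0.418), and its other probe set stood at 0.12. ABCB4, the phosphatidylcholine floppase of bile, stood at 0.16 (SE 0.20) and read at most 20.9 on any array. ABCB6, linked to porphyrin transport, the mitochondrial ABCB8 and the lysosomal peptide transporter ABCB9 stood at -0.07 (SE 0.21), 0.01 (SE 0.17) and -0.09 (SE 0.18). A further 2 probe sets carry 2 symbols each, for ABCB1 with ABCB4 and for ABCB8 with another gene, and were left out.

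Subfamilies A and G move lipids and sterols, and ABCG2 also pumps drugs. ABCA2, an endolysosomal lipid transporter, read 261, 216 and 224 in HCT116 and 249, 125 and 117 in E1. E1 array 1 lay within the HCT116 range, and arrays 2 and 3, those with the high GAPDH ratios, lay well below it. The log2 fold change was -0.50 (SE 0.26, adjusted p = 0.431) over all arrays, 0.09 on E1 array 1 alone and -0.79 without it (adjusted p = 0.0300). In that last fit 1073 of 11963 genes were called, 877 of them lower (7.33% of all genes), against 50 with all arrays. The second ABCA2 probe set, 210100_s_at, was low on the same arrays, with 77.1, 56.4 and 75.2 in HCT116 and 54.5, 5.26 and 6.98 in E1. ABCA7, a phospholipid transporter, read 158 to 171 in HCT116 and 161, 79.2 and 123 in E1, at -0.40 (SE 0.22, adjusted p = 0.443), and again only E1 arrays 2 and 3 were below HCT116. The cholesterol exporter ABCA1 stood at 0.03 (SE 0.18), from 32.95 to 58.8 in HCT116 and 40.3 to 60.3 in E1. Its dimmer probe set 203505_at, at 2.82 to 9.43 in HCT116 and 10.3 to 30.1 in E1, stood at 0.43, and without probe sets ending in _s_at or _x_at it made ABCA1 the 1 member at an unadjusted p under 0.05 (SE 0.18, adjusted p = 0.364).

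The other 6 A genes were dim and stood between -0.14 and 0.15. They were ABCA3, which fills the lamellar bodies of lung cells with lipid, ABCA4 of the retina, ABCA12 of the epidermis, and ABCA5, ABCA6 and ABCA8. Each had an adjusted p of at least 0.812. ABCG2, the drug and urate pump also called BCRP, read 63.4, 49.7 and 69.0 in HCT116 and 43.4, 48.4 and 40.7 in E1, lower on every E1 array by a log2 difference of -0.28 (SE 0.14, 95% interval -0.62 to 0.06, adjusted p = 0.415). Its values on the single E1 arrays were -0.29, -0.20 and -0.35, and its signal was below the median of all genes in both lines. ABCG2 moved nearer to the HCT116 level with scaling. It stood at -0.14 (adjusted p = 0.660) after quantile normalization and -0.13 (adjusted p = 0.700) with array medians subtracted. ABCG4, a sterol exporter of neural cells, stood at -0.25 (SE 0.20), the macrophage sterol exporter ABCG1 at 0.03 (SE 0.17) and the intestinal sterol exporter ABCG5 at 0.04 (SE 0.25).

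The family has 3 further members whose symbols do not start with ABC, TAP1, TAP2 and CFTR, and none was called. TAP1 and TAP2 carry peptides into the endoplasmic reticulum for MHC class I. TAP1 read 219, 238 and 203 in HCT116 and 265, 188 and 139 in E1, highest of all on E1 array 1 and below HCT116 on arrays 2 and 3, at -0.17 (SE 0.22, adjusted p = 0.792). TAP2 read 99.9, 86.2 and 118 in HCT116 and 109, 68.0 and 50.9 in E1, within the HCT116 range on E1 array 1 and below it on arrays 2 and 3, at -0.33 (SE 0.22, adjusted p = 0.541). The chloride channel CFTR was dim, at 7.035 to 32.8 in HCT116 and 8.56 to 34.2 in E1, and stood at -0.002 (SE 0.27, adjusted p = 0.998).

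For most of the brighter members the E1 arrays spread more widely than the HCT116 arrays, as they did for most genes equally bright. Among the 14 brighter members the median range over the 3 arrays of a line was 0.45 in HCT116 and 0.79 in E1 on the log2 scale, and the range was wider in E1 for 10 of them (71.4%, against 74.7% of 6432 equally bright genes). In ABCC4, ABCD3 and ABCE1 only E1 array 1 lay lower than the HCT116 mean by 0.5 or more while the other E1 arrays lay within 0.5 of it, a pattern of 3 of 14 members and of 8.29% of the 6432 genes. In ABCA2 only E1 arrays 2 and 3 lay lower by that measure, 1 of 14 members against 12.6%. These limits were set after the values had been seen. With E1 array 1 alone against HCT116, where the spread comes from the 3 HCT116 arrays only and the lone E1 array is assumed to vary like them, 5 of 34 members had an unadjusted p under 0.05 (11.5% of all genes did). Those 5 were lower on the E1 array, as 7.05% of all genes were at that mark, and equally bright genes had a median of -0.14 on it. They were ABCE1 at -0.84 (SE 0.23), ABCD3 at -0.85 (SE 0.29), ABCC4 at -0.75 (SE 0.27), ABCF2 at -0.69 (SE 0.26) and ABCD2 at -0.45 (SE 0.17). None passed over all genes (0.0167% of all genes did), the smallest adjusted p being 0.382.

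**Figure D3:**
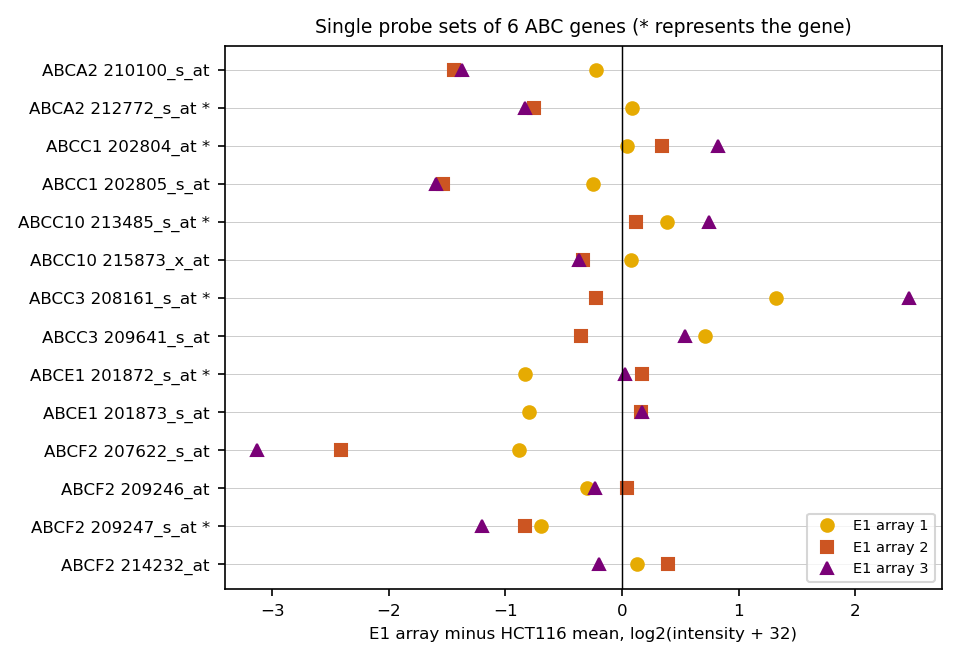
Difference of each E1 array from the HCT116 mean, in log2(intensity + 32) on the horizontal axis, for the single probe sets of 6 ABC genes with a mean intensity of at least 30, a marker per E1 array and an asterisk at the probe set that stands for the gene. ABCF2 207622_s_at, ABCC1 202805_s_at and ABCA2 210100_s_at lie low on E1 arrays 2 and 3, other probe sets of the same genes do not or less so, and both ABCE1 probe sets lie low on E1 array 1.

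Around these members, 9 lists of genes that work with ABC proteins were read in the same fit, chosen with earlier results of these data known. A single gene of them was called, GSR, glutathione reductase, where 0.418% of all genes were called. In its list, glutathione supply and conjugation, 0 of 17 genes were called higher and 1 lower, against 0.217% and 0.201% of all genes. GSR was not among the 3 genes called at an adjusted p under 0.01, and the other alternatives were not read for it. GSR read 861 ± 80.15 (SD, n = 3) in HCT116 against 222.5 ± 45.9 (SD, n = 3) in E1, which gave a log2 difference of -1.82 (SE 0.18, adjusted p = 0.0224). On E1 arrays 1, 2 and 3 the difference was -1.55, -1.85 and -2.07. GSR keeps in reduced form the glutathione on which the C pumps draw. The median of that list was 0.06 against -0.0055 for all genes.

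Of 15 sterol and xenobiotic receptor genes, 0 were called, with a median of -0.12. At the unadjusted mark of 0.05, 1 was higher and 4 were lower, where 5.29% and 9.70% of all genes were. AHR, the receptor of aromatic pollutants that is known to drive ABCG2, stood at 0.62 (SE 0.14, adjusted p = 0.163), at 0.58, 0.60 and 0.68 on the single E1 arrays. Its partner ARNT stood at -1.32 (SE 0.27, adjusted p = 0.141), at -0.74, -1.77 and -1.43. Of 16 cholesterol and lipid partners 0 were called, with 1 higher and 1 lower at the unadjusted mark. They were APOC1, a lipoprotein component, at 1.10 (SE 0.31, adjusted p = 0.217), and the HDL receptor SCARB1, at -1.30 (SE 0.42, adjusted p = 0.262). On E1 arrays 1, 2 and 3 APOC1 stood at 0.60, 1.22 and 1.49 and SCARB1 at -0.47, -1.35 and -2.08.

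Of 16 genes of ribosome recycling and translation start, the partners of ABCE1 and the F proteins, 0 were called, with 1 higher and 1 lower at the unadjusted mark. GSPT1, the termination factor eRF3, stood at 0.76 (SE 0.29, adjusted p = 0.307), with 0.22 on E1 array 1 and 0.99 and 1.06 on the others. EIF2S3, the gamma subunit of eIF2, stood at -1.48 (SE 0.56, adjusted p = 0.307), with -0.10 on E1 array 1 and -2.14 and -2.20 on the others. The arrays of the lines overlapped for both genes. The list's median difference from HCT116 was -0.40 on E1 array 1, 0.18 on array 2 and 0.06 on array 3, where all genes had -0.05, -0.03 and 0.05 and the genes above the median signal, which 15 of the 16 are, had -0.14, -0.03 and 0.10.

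Of 18 peroxisome genes, the partners of ABCD2 and ABCD3, 0 were called. At the unadjusted mark 2 were higher and 2 lower, where 5.29% and 9.70% of all genes were. The list's median was 0.05 on E1 array 1, where ABCD3 was low, -0.19 on array 2 and 0.39 on array 3. The peroxins PEX10 and PEX16 stood at -1.24 (SE 0.42, adjusted p = 0.276) and -0.49 (SE 0.17, adjusted p = 0.280). On E1 arrays 1, 2 and 3 PEX10 stood at -0.28, -1.80 and -1.63, with overlap of the lines, and PEX16 at -0.25, -0.68 and -0.53. Of 19 heme and iron-sulfur genes 0 were called and 2 were lower at that mark. CIAO1, a factor of cytosolic iron-sulfur assembly, stood at -1.04 (SE 0.21, adjusted p = 0.133), with -0.86, -1.14 and -1.12 on E1 arrays 1, 2 and 3. The mitochondrial iron importer SLC25A37 stood at -0.72 (SE 0.28, adjusted p = 0.317), with -0.09, -0.88 and -1.19 and overlap of the lines. Of 23 uptake transporters of drugs and organic ions 0 were called and 1 was lower at that mark. It was SLC29A2, a nucleoside carrier, at -0.86 (SE 0.24, adjusted p = 0.216), with -0.48, -1.08 and -1.02 on E1 arrays 1, 2 and 3. The organic anion carrier SLCO1A2 stood at 0.28 (SE 0.13, adjusted p = 0.382). Of 11 peptide loading partners 0 were called and 0 reached the unadjusted mark. The smallest p belonged to the aminopeptidase ERAP1 at -0.26 (SE 0.14, adjusted p = 0.445) and to TAPBPL, a relative of tapasin, at -0.19 (SE 0.18, adjusted p = 0.689). KCNJ8, a potassium channel pore that pairs with ABCC9, stood at 0.30 (SE 0.26, adjusted p = 0.662).

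**Figure D4:**
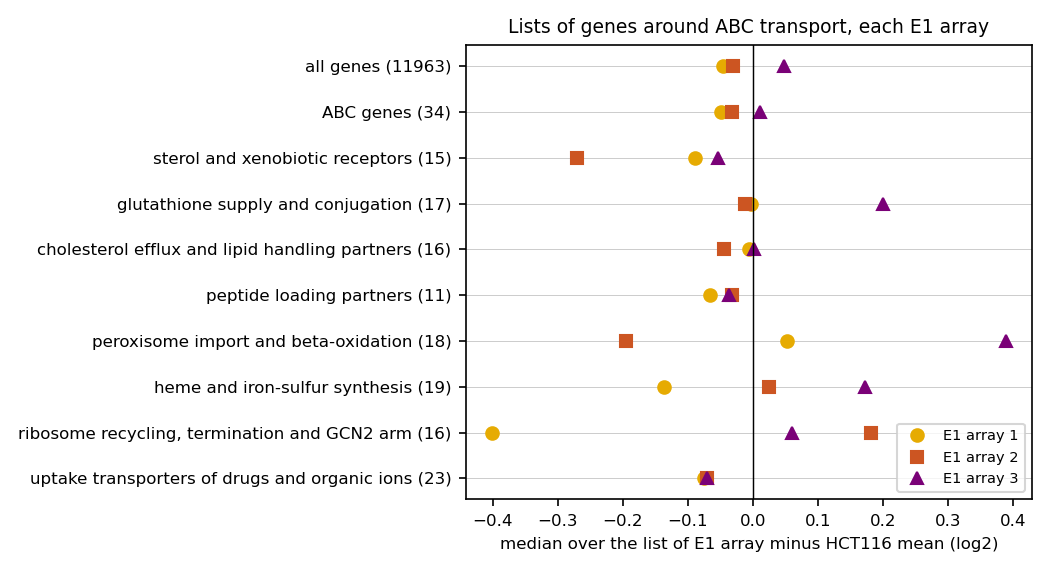
Median over each list of the difference of an E1 array from the HCT116 mean, in log2(intensity + 32) on the horizontal axis, with the number of measured genes in brackets and a marker per E1 array. The ABC genes lie between -0.05 and 0.01 on the 3 arrays, close to all genes, and the ribosome recycling list lies at -0.40 on E1 array 1.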

How the data were processed

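Biotin-labelled total RNA from 3 arrays per line was measured on Affymetrix arrays, per the labels' protocols. For each of 22283 probe sets the deposited table gives a linear intensity on every array. How the authors summarized, corrected or scaled these intensities is not given in the sources used here, and detection calls were not used. From the deposited intensities log2(intensity + 32) was computed, with no further normalization.

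The 68 control probe sets were left out. Among probe sets with a single platform symbol, the one with the largest mean log2 value stood for a gene, and all 34 ABC symbols matched the RefSeq gene table by Entrez number (the separate RefSeq promoter table held 27 of them). E1 was set against HCT116 in limma 3.58.1 under R 4.3.3 (functions lmFit and eBayes, two-sided, Benjamini-Hochberg over 11963 genes). The fit was also run on simulated data with independent normal noise of equal spread in both lines. The real arrays spread more widely in E1, so that run cannot show how the fit behaves on them. With 3 arrays against 3 an exact permutation test could not go below 0.1. The number of arrays limits the precision.

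Members and lists were chosen with earlier results of these data known. Values on each array are given for members at an unadjusted p under 0.05, the member with the largest change among the brighter ones of each subfamily, ABCB1, ABCC1, ABCG2, TAP1, TAP2 and CFTR; other members with values on each array were chosen after their values were seen. Partner lists are named by their called genes or otherwise up to 2 with the smallest p. Alternatives were quantile normalization, subtracted array medians, an offset of 1 or 100, the lowest 40% of genes left out, the mean of probe sets, leaving out probe sets ending in _x_at or _s_at, trended and robust eBayes, a replicate block, leaving out each array, E1 array 1 alone, the GAPDH ratio as covariate, an adjusted p under 0.01 and single probe sets.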

Additional observations from a re-analysis of the deposited data

How the results depend on the processing

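The count of 0 called ABC genes held under every alternative run except without E1 array 1, where 2 were called lower, ABCA2 at -0.79 (adjusted p = 0.0300) and ABCF2 at -1.02 (adjusted p = 0.0439), where 7.33% of all genes were called lower, so the counts without 1 array ran from 0 to 2. With 1 value per gene ABCF2 was negative under every alternative run, from -1.05 to -0.16, and its single probe sets ran from -2.14 to 0.11. Members at an unadjusted p under 0.05, 1 with all arrays, were 3 after quantile normalization, 3 with array medians subtracted, 2 with an offset of 1, 5 with E1 array 1 alone, 5 with the GAPDH covariate, 4 single probe sets, and 1 to 4 without 1 array (4 without E1 array 1, 3 without E1 array 2, and 2 without E1 array 3 or HCT116 array 2 or 3). The members' median was 0.031 after quantile normalization, 0.10 with array medians subtracted, -0.23 without the lowest 40% of genes, -0.092 with the mean of probe sets, and -0.11 to 0.020 without 1 array. Over all genes 50 were called, against 10 with an offset of 100, 8 without _x_at and _s_at probe sets, 2 with E1 array 1 alone, 2 with the GAPDH covariate, 3 at an adjusted p under 0.01, 166 single probe sets, and 2 to 1073 without 1 array. These last were 1073 without E1 array 1, 17 and 9 without E1 array 2 or 3, and 2, 3 and 3 without HCT116 array 1, 2 or 3.

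Signs changed for uncalled genes, among them these. ABCA12, ABCB6 and ABCB9 changed sign after quantile normalization, and these with ABCA4, ABCA8 and ABCC4 with array medians subtracted. ABCC2 stood at 0.12 without E1 array 2. ABCA2 stood at 0.087 with E1 array 1 alone and 0.081 with the covariate, ABCC1 at -0.36 with the mean of probe sets, and, without 1 array, ABCD3 ran from -0.43 to 0.042 and ABCE1 from -0.40 to 0.10, both above 0 only without E1 array 1. TAP1 stood at 0.050 after quantile normalization, -0.38 to 0.023 without 1 array, 0.24 with E1 array 1 alone and 0.26 with the covariate, and TAP2 at 0.090 and 0.11 in the last 2 of these. CFTR stood at 0.090 after quantile normalization, 0.15 with array medians subtracted, 0.037 with an offset of 1, 0.088 with the mean of probe sets, and -0.23 to 0.20 without 1 array. The cause of these changes was not tested.

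With the replicate number as a block, 2 genes were called over all and 0 ABC genes, and ABCF2 kept its value at an adjusted p of 0.311. The labels do not say whether equal numbers pair the arrays. Same-numbered arrays had correlations of deviations from their line means of -0.06, -0.36 and -0.12. These cannot decide whether a batch is shared, because the E1 arrays also differ in their GAPDH ratios. Signal over background limits the 20 dim members.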
